A study of Mus musculus with 38 samples.

Results

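Transcripts of 8 genes of insulin signalling and glucose uptake (Insr, Irs1, Irs2, Pik3r1, Akt2, Slc2a4, Slc2a1 and Pck1) were followed on 38 mouse arrays. The members were all probes, other than control probes, whose gene name on the array was one of these symbols, which gave 8 of the 29411 gene names and 14 of the 40628 probes. RNA came from stromal vascular cells of epididymal fat, which are the cells of the fat pad other than adipocytes and are described in the labels as infiltrating macrophages. All mice were C57BL/6J, weaned at 3 to 4 weeks of age, and no genotype other than the strain was given. The low fat control diet (LFC, 10 arrays) had 10% of its calories from fat, and the high fat control diet (HFC, 10 arrays) had 60% of its calories from fat together with increased sucrose. HF5, HF20 and HF75 (6 arrays each) received the same high fat diet with 5, 20 or 75 µg of the botanical formulation KAL-1. Each diet had a single array per sampling. The control diets were sampled on day 6 (D6), day 10 (D10) and day 14 (D14) and then every 3 weeks from week 0 (W0) to week 18 (W18), and the formulation diets from W3. The labels state that 5 animals of a group were killed at each sampling. They do not state whether the RNA on an array came from 1 animal or a pool. The p-values of diet and dose comparisons therefore measure how differences within a time point vary over the time points, and not the spread between animals. Those of the slope common to LFC and HFC measure the spread between arrays of different time points.

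Insulin binds the insulin receptor, which phosphorylates the adaptor proteins IRS1 and IRS2. These recruit phosphoinositide 3-kinase, whose product activates the kinase AKT2, and AKT2 brings the transporter GLUT4 to the surface of adipocytes and muscle cells. GLUT1 carries glucose into most cells without insulin, and the enzyme PEPCK, the product of Pck1, serves glycerol synthesis in fat and glucose synthesis in liver and is repressed by insulin.

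A level below is the log2 processed signal of a probe minus the log2 75th percentile of its array, so that 0 is the brightness of a probe at that percentile. Levels of different probes were not set against each other. The 75th percentile signal ran from 25.8 (HF5 W12) to 1983 scanner units, with HF75 W3 the second dimmest array at 88.4, and between 40.1% and 91.6% of spots on an array were well above background. Outlier spots made up 11.1% of HFC W12 and 14.3% of HF75 W12, against at most 2.10% of any other array. They also had the highest shares of spots well above background, 91.6% and 89.4%. HFC W12 enters every difference at W12 given below. Macrophage markers were well above background on every array for 6 of 9 genes, adipocyte markers for 6 of 9 and markers of stromal progenitor cells for 5 of 6. The adipocyte marker score, the mean level of the 9 markers, ran from -0.67 (HF20 W12) to 5.15 (LFC W9). It lay between 4.82 and 5.15 on 4 arrays (both control diets at W9, with LFC and HF75 at W12) and was at most 3.89 on the other 34. On those 4 arrays the score of immediate early genes lay between -0.28 and 1.80, against 4.11 to 5.78 on the others. Brown fat marker scores were 2.19 on LFC D6, 2.68 on LFC D10 and 4.49 on HF5 W12, and at most -0.05 on every other array. In tissue RNA of this kind, fewer cells of a type and less RNA per cell cannot be told apart.

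Across the course, Slc2a4, Irs1, Pck1 and Akt2 had their high levels on the 4 arrays of high adipocyte score, and Slc2a1 and Irs2 had low levels on the same arrays. Between the diets, Slc2a4 was the gene with the lowest p, at a lower mean level in HFC than in LFC, and neither it nor any other of the 8 genes passed the threshold in any comparison. The plot of levels by time shows all values of the probe with the highest mean level of each gene, which stands for the gene below.

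**Figure D1:**
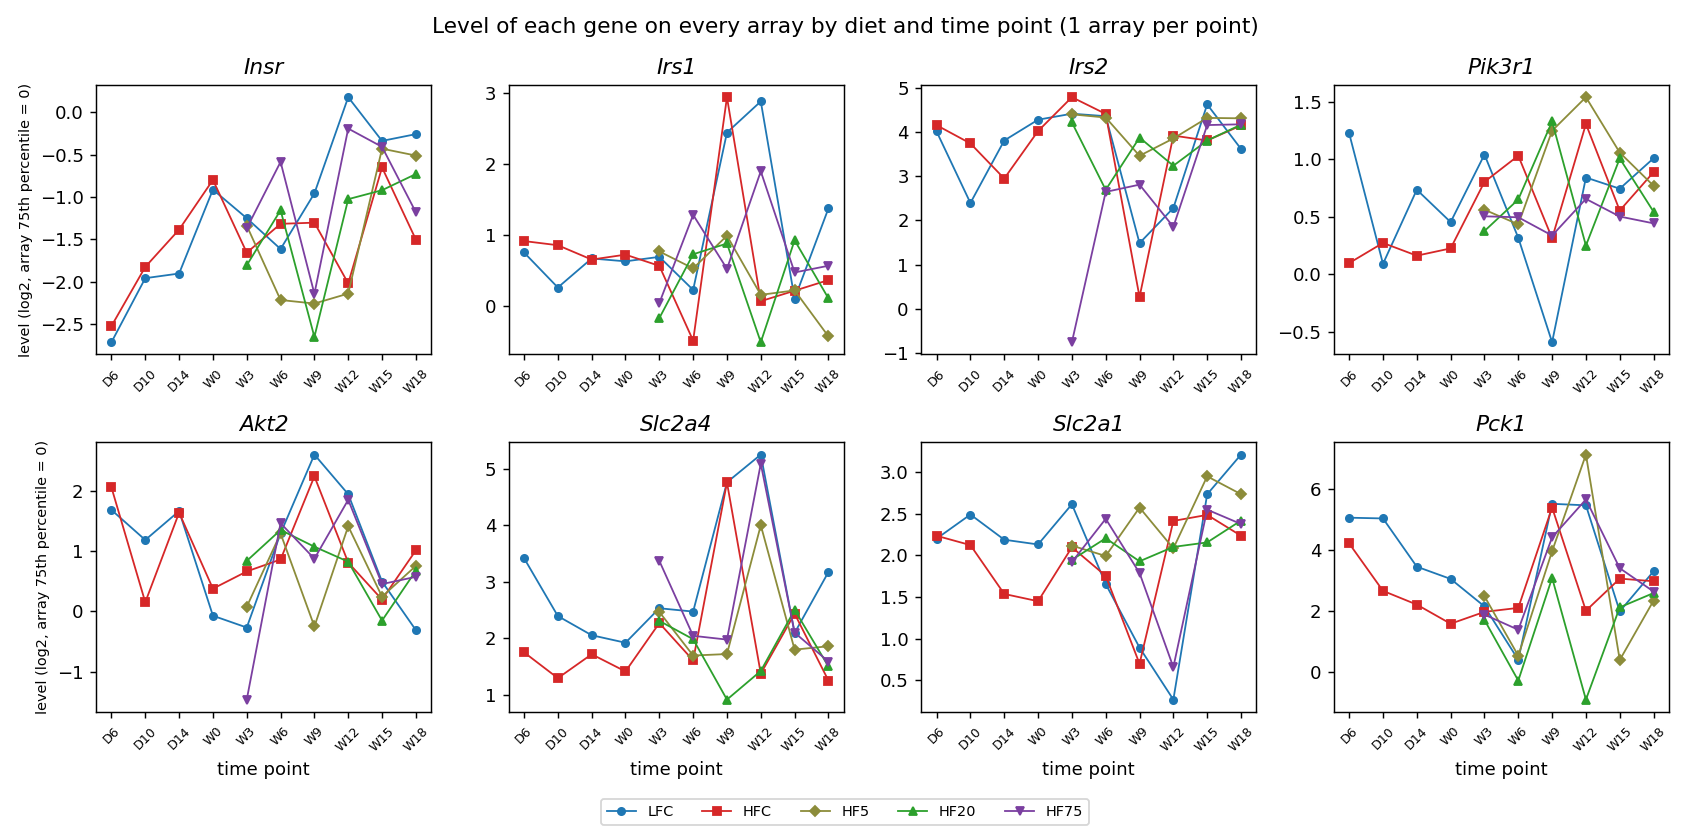
Level of each of the 8 genes (vertical axis, log2, array 75th percentile set to 0) at each time point (horizontal axis) for the 5 diets, with 1 array per point and no replicate arrays. Slc2a4 reached 4.76 to 5.25 in both control diets at W9 and in LFC and HF75 at W12, where Slc2a1 was between 0.27 and 0.89.

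The insulin receptor gene Insr was measured by 2 probes. GT_Mm_44k_52_P494514, which stands for the gene, was well above background on 37 of 38 arrays. Its level in LFC ran from -2.72 at D6 to 0.18 at W12 (median -1.11), and in HFC from -2.53 at D6 to -0.65 at W15 (median -1.45). HF5 lay between -2.26 and -0.43 (median -1.74), HF20 between -2.65 and -0.73 (median -1.09) and HF75 between -2.14 and -0.19 (median -0.88). The diets overlapped throughout. In both control diets the lowest array was D6 and the level was higher at each of the next time points to W0, with -2.72, -1.96, -1.91 and -0.91 in LFC and -2.53, -1.83, -1.39 and -0.80 in HFC. D14 and W0 share an elapsed day and were scanned on different days, so the step between them is not a change over time. The widest gap between the diets was at W12, where LFC stood at 0.18 and HFC, on the array with 11.1% outlier spots, at -2.02. HFC minus LFC was -0.33 (SE 0.25, n = 10 time points), higher at 5 time points and lower at 5, with an unadjusted p of 0.225 and an adjusted p of 0.631 in limma. Without W12 the difference was -0.12.

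The second Insr probe (GT_Mm_44k_52_P6490) was well above background on 26 of 38 arrays and gave a difference of the other sign, 0.27 (SE 0.29, adjusted p 0.718 in limma). The fit left it out on LFC W0 and HFC W12, where its spot was an outlier, so its difference rests on 8 time points. The value of the lead probe includes W12 and was -0.12 without it. The probes of Insr thus differed in sign over unlike sets of time points. The mean level of the second probe was -5.30.

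Irs1 and Irs2 encode the main adaptors that the insulin receptor phosphorylates. The lead probe of Irs1 (GT_Mm_44k_52_P175242) was well above background on all 38 arrays, with levels from 0.10 to 2.87 in LFC (median 0.68) and from -0.49 to 2.93 in HFC (median 0.61). HF5 ran from -0.43 to 0.99 (median 0.37), HF20 from -0.51 to 0.92 (median 0.42) and HF75 from 0.04 to 1.89 (median 0.54). The highest 4 of the 38 levels were HFC W9 (2.93), LFC W12 (2.87), LFC W9 (2.44) and HF75 W12 (1.89), which are the arrays of high adipocyte score, and the next was LFC W18 at 1.37. HFC minus LFC was -0.32 (SE 0.30, n = 10 time points), higher at 5 and lower at 5, with an adjusted p of 0.678 in limma. The W12 pair alone differed by -2.81, and without that time point the difference was -0.04. The second Irs1 probe (GT_Mm_44k_52_P171212), well above background on 35 arrays and left out by the fit on HFC W12, gave 0.14 (SE 0.22).

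Irs2 was measured by 1 probe in 2 spots (GT_Mm_44k_00690), well above background on all arrays. Its levels ran from 1.49 to 4.62 in LFC (median 3.91), from 0.27 to 4.78 in HFC (median 3.97), from 3.46 to 4.39 in HF5 (median 4.31), from 2.69 to 4.21 in HF20 (median 3.84) and from -0.75 to 4.17 in HF75 (median 2.72). The lowest arrays were HF75 W3 (-0.75), the second dimmest array, and then HFC W9 (0.27), LFC W9 (1.49), HF75 W12 (1.85) and LFC W12 (2.28), so Irs2 was low where Irs1 was high. On the other 33 arrays it was at least 2.39. HFC minus LFC was 0.09 (SE 0.28), higher at 6 of 10 time points and lower at 4, with an adjusted p of 0.902 in limma.

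The promoters of these adaptors and of Slc2a1 and Pck1 are shown, and the levels of these genes ran together or opposite to each other across the arrays. Akt2 (4 promoters at hand) and Pik3r1 (2 promoters) are not shown, although Akt2 also had high levels on the arrays of high adipocyte score. RefSeq promoters in the mouse build GRCm38.p6 were at hand for 6 of the 8 genes, without Insr and Slc2a4, and the 250 bases before the annotated start are printed 5′ to 3′. Capitals mark the letters CACGTG (an E-box), GGGCGG, TTACGTCA (a variant of the cyclic AMP response element) and the CCAAT box, each searched on both strands.
Irs1, chr1:82291440-82291689, minus strand: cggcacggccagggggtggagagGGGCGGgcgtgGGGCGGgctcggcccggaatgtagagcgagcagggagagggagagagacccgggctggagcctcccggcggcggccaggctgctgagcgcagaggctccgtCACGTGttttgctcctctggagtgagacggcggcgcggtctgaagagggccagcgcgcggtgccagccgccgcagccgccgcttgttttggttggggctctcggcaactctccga
Irs2, chr8:11008930-11009179, minus strand: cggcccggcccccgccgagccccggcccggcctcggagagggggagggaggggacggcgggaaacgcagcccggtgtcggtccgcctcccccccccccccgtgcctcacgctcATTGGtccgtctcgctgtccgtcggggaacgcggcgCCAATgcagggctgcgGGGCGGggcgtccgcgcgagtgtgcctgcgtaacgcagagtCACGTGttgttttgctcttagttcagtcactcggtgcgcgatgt
Slc2a1, chr4:119108495-119108744, plus strand: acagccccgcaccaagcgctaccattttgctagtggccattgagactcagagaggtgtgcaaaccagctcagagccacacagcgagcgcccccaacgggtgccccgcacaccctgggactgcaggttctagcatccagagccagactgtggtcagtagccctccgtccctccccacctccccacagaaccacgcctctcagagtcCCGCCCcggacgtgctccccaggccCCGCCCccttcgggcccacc
Pck1, chr2:173152823-173153072, plus strand: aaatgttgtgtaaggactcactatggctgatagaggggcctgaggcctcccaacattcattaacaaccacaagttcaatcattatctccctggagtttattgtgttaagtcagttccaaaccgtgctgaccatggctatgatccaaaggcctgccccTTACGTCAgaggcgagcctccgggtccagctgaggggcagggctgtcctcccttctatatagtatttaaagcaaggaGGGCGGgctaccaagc
CACGTG stood 115 bases before the start of Irs1 and 44 bases before that of Irs2, and 6.02% of the 32851 promoters in the table held it. TTACGTCA stood 93 bases before the start of Pck1, in 0.447% of promoters. GGGCGG occurred in all of these 4 windows and in 32.7% of promoters, and CCAAT occurred in Irs2 and in 33.8% of promoters. The Irs1 and Irs2 windows had 72.4% and 72.8% GC with 28 and 34 CpG, the Slc2a1 window 66.4% GC with 13 CpG and the Pck1 window 50.8% GC with 5 CpG, against a median of 52.4% GC and 6 CpG. A match of letters is a description of the sequence only.

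Pik3r1 encodes the regulatory subunit of phosphoinositide 3-kinase and was measured by 4 probes. The lead probe (GT_Mm_44k_52_P407239) had an SD of 0.32 over the 28 arrays other than W9 and W12, the smallest of the lead probes. It ran from -0.59 to 1.23 in LFC (median 0.74), from 0.10 to 1.31 in HFC (median 0.43), from 0.43 to 1.54 in HF5 (median 0.91), from 0.25 to 1.33 in HF20 (median 0.60) and from 0.34 to 0.66 in HF75 (median 0.50). The lowest array was LFC W9 and the highest was HF5 W12, and the diets overlapped. The diets differed by -0.02 (SE 0.20), higher at 4 and lower at 6 of 10 time points. The other probes gave 0.34 (SE 0.16, GT_Mm_44k_51_P511236, without D10 in HFC), 0.09 (SE 0.26, GT_Mm_44k_52_P235476) and 0.39 (SE 0.24, GT_Mm_44k_52_P307938, without W12 in HFC), and the adjusted p of the 4 probes lay between 0.545 and 0.971 in limma.

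Akt2 encodes the AKT kinase that acts on glucose transport in fat and muscle. Its lead probe (GT_Mm_44k_52_P2977) ran from -0.31 to 2.60 in LFC (median 1.24), from 0.15 to 2.24 in HFC (median 0.83), from -0.25 to 1.41 in HF5 (median 0.50), from -0.15 to 1.35 in HF20 (median 0.83) and from -1.47 to 1.85 in HF75 (median 0.72). LFC W9 (2.60) and HFC W9 (2.24) were highest and HF75 W3 was lowest. The difference between HFC and LFC was -0.02 (SE 0.25), higher at 4 and lower at 6 of 10 time points, and the second probe (GT_Mm_44k_51_P408044) gave 0.12 (SE 0.29). Neither probe passed (adjusted p 0.978 and 0.873 in limma).

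Slc2a4 encodes GLUT4, the insulin-responsive glucose transporter of adipocytes and muscle. It was measured by 1 probe (GT_Mm_44k_51_P217498), well above background on all arrays and saturated on LFC W12, where its level is a lower bound. Levels ran from 1.92 to 5.25 in LFC (median 2.50), from 1.25 to 4.76 in HFC (median 1.66), from 1.69 to 4.00 in HF5 (median 1.83), from 0.91 to 2.50 in HF20 (median 1.74) and from 1.59 to 5.09 in HF75 (median 2.07). The highest arrays were LFC W12 (5.25), HF75 W12 (5.09), LFC W9 (4.76) and HFC W9 (4.76), then HF5 W12 (4.00), which had the highest brown fat score and a skeletal muscle score of 4.13, and LFC D6 (3.42).

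The level of Slc2a4 was lower in HFC than in LFC at 8 of 10 time points by 0.26 or more, equal to 2 decimals at W9 (4.76 in each) and higher at W15 by 0.34. The differences were -1.67 at D6, -1.10 at D10, -0.34 at D14, -0.51 at W0, -0.26 at W3, -0.86 at W6, -3.88 at W12 and -1.92 at W18. The mean difference was -1.02 (SE 0.36, n = 10 time points), with an unadjusted p of 0.0155 and an adjusted p of 0.545 in limma, so it did not pass. This value and that of W12 rest on the saturated LFC W12 spot, and with saturated spots left out the difference was -0.70 (unadjusted p 0.0170). Of the 31029 probes tested in HFC minus LFC, 0 passed after adjustment (0%) and 2818 had an unadjusted p under 0.05 (9.08%), against 1 of the 8 genes and 1 of the 14 member probes. The adipocyte score was lower in HFC at 7 of 10 time points (mean difference -0.58, SE 0.36) and the brown fat score at 8 of 10 (mean -1.56, SE 0.65). The skeletal muscle score was lower in HFC at 7 of 10 (mean -1.04, SE 0.68), and the macrophage score was higher at 8 of 10 (mean 0.70, SE 0.30). At W12 the adipocyte score differed by -2.86, and at W9, where Slc2a4 was equal, by -0.05. With the adipocyte score as a covariate the Slc2a4 difference was -0.56 (unadjusted p 0.0926), without W9 and W12 it was -0.79 (unadjusted p 0.0130), and without D6, D10, W9 and W12 it was -0.59 (unadjusted p 0.0795). Scores of epididymis and mesothelial markers were -6.39 and -4.15 on LFC D6, against 2.03 and 3.91 on HFC D6. At D10 they were -6.68 and -5.94 in LFC, against 4.35 and 2.87 in HFC. Over 10 time points their mean differences were 2.46 (SE 1.64, higher in HFC at 6) and 1.85 (SE 1.29, higher at 7). The part of brown fat, muscle, macrophage, epididymis and mesothelial transcripts in the Slc2a4 difference was not tested.

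**Figure D2:**
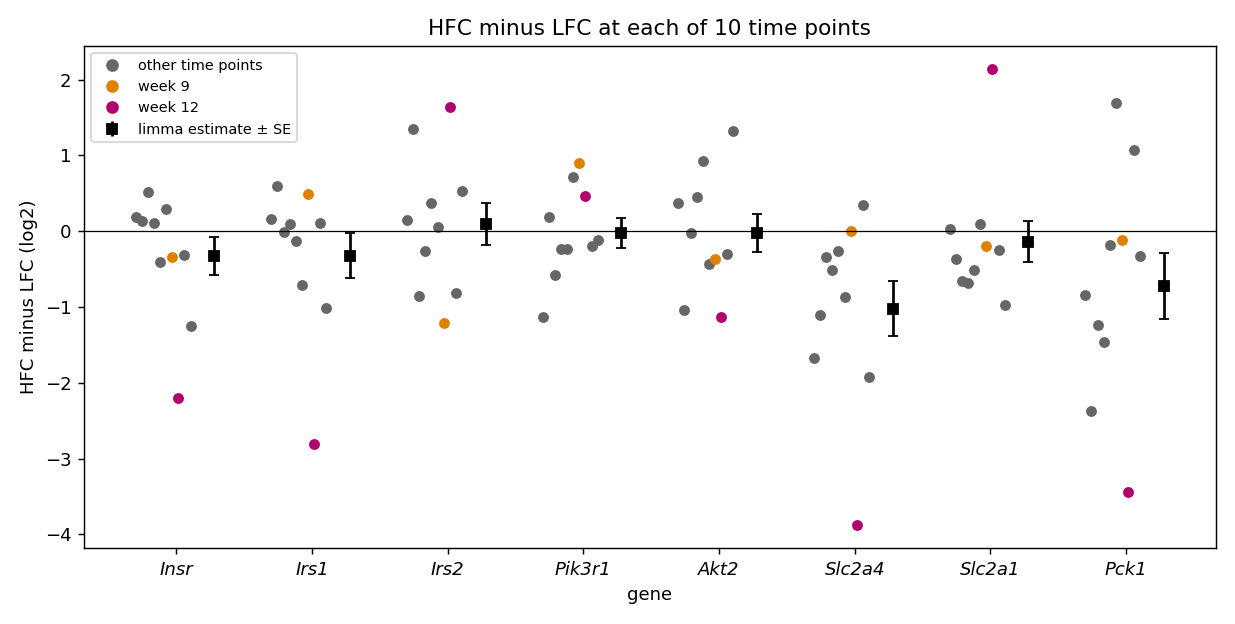
Difference between the HFC and the LFC array (vertical axis, log2) at each of 10 time points for the 8 genes (horizontal axis), with W9 and W12 coloured and the limma estimate ± SE as a black square. Slc2a4 lies below 0 at most time points, and the W12 pair is the lowest point of Insr, Irs1, Slc2a4, Pck1 and Akt2 and the highest point of Slc2a1 and Irs2.

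Slc2a1 encodes GLUT1, the transporter that supplies glucose to most cells independently of insulin. Its probe (GT_Mm_44k_51_P464738) ran from 0.27 to 3.21 in LFC (median 2.19), from 0.70 to 2.49 in HFC (median 2.11), from 1.99 to 2.95 in HF5 (median 2.35), from 1.93 to 2.42 in HF20 (median 2.13) and from 0.66 to 2.55 in HF75 (median 2.15). The 4 lowest arrays were LFC W12 (0.27), HF75 W12 (0.66), HFC W9 (0.70) and LFC W9 (0.89), and every other array was at 1.45 or more. HFC minus LFC was -0.14 (SE 0.26, adjusted p 0.843 in limma), lower at 7 of 10 time points. The W12 pair, at 2.14, lay opposite to most of the others, and without W12 the difference was -0.39 (unadjusted p 0.0206, adjusted p 0.480 in limma).

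Pck1 encodes cytosolic PEPCK and was measured by 1 probe in 2 spots (GT_Mm_44k_01553), well above background on all arrays and saturated on the 4 arrays of high adipocyte score, where its levels are lower bounds. Levels ran from 0.42 to 5.51 in LFC (median 3.38), from 1.59 to 5.39 in HFC (median 2.44), from 0.41 to 7.12 in HF5 (median 2.42), from -0.89 to 3.09 in HF20 (median 1.92) and from 1.40 to 5.65 in HF75 (median 3.03). The highest arrays were HF5 W12 (7.12) and the saturated arrays HF75 W12, LFC W9, LFC W12 and HFC W9 (at least 5.65, 5.51, 5.46 and 5.39), whose order cannot be read. LFC D6 (5.06) and LFC D10 (5.03), which with HF5 W12 had the highest brown fat scores, came next. The lowest were HF20 W12 (-0.89) and HF20 W6 (-0.27). HFC minus LFC was lower at 7 of the 9 time points other than W9, where both arrays were saturated and no sign can be read, and higher at W6 and W15. The fit to the values as deposited gave -0.72 (SE 0.44), with an unadjusted p of 0.127 and an adjusted p of 0.573 in limma, and with saturated spots left out -0.46 (unadjusted p 0.311). Without W12 it was -0.42 (unadjusted p 0.297), without W6 it was -0.99 (unadjusted p 0.0334), and with the adipocyte score as a covariate it was -0.03.

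Set against the adipocyte score of the same array, the 8 genes showed different patterns. Slc2a4 lay between 4.76 and 5.25 on the 4 arrays of high score and at most at 4.00 on the other 34, so the ranges did not overlap. Irs1 lay between 1.89 and 2.93 against at most 1.37, and Slc2a1 between 0.27 and 0.89 against at least 1.45, also without overlap. For Irs2 the range was 0.27 to 2.28 and 1 other array (HF75 W3) was below its top. Pck1 was saturated on these 4 arrays, at 5.39 or more, and of the others only HF5 W12 (7.12) reached that level. For Akt2 the range was 1.85 to 2.60 and 1 other array (HFC D6, at 2.06) lay within it. Insr (-1.30 to 0.18) and Pik3r1 (-0.59 to 0.84) overlapped with the remaining arrays. The mean on the 4 arrays minus the mean on the other 34 was at least 2.90 for Slc2a4 and at least 2.96 for Pck1, where saturated spots enter, 2.08 for Irs1, 1.47 for Akt2 and 0.83 for Insr, and -2.26 for Irs2, -1.60 for Slc2a1 and -0.37 for Pik3r1. These arrays belong to 3 diets and 2 time points and were set apart by a measured score, so no test was made.

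**Figure D3:**
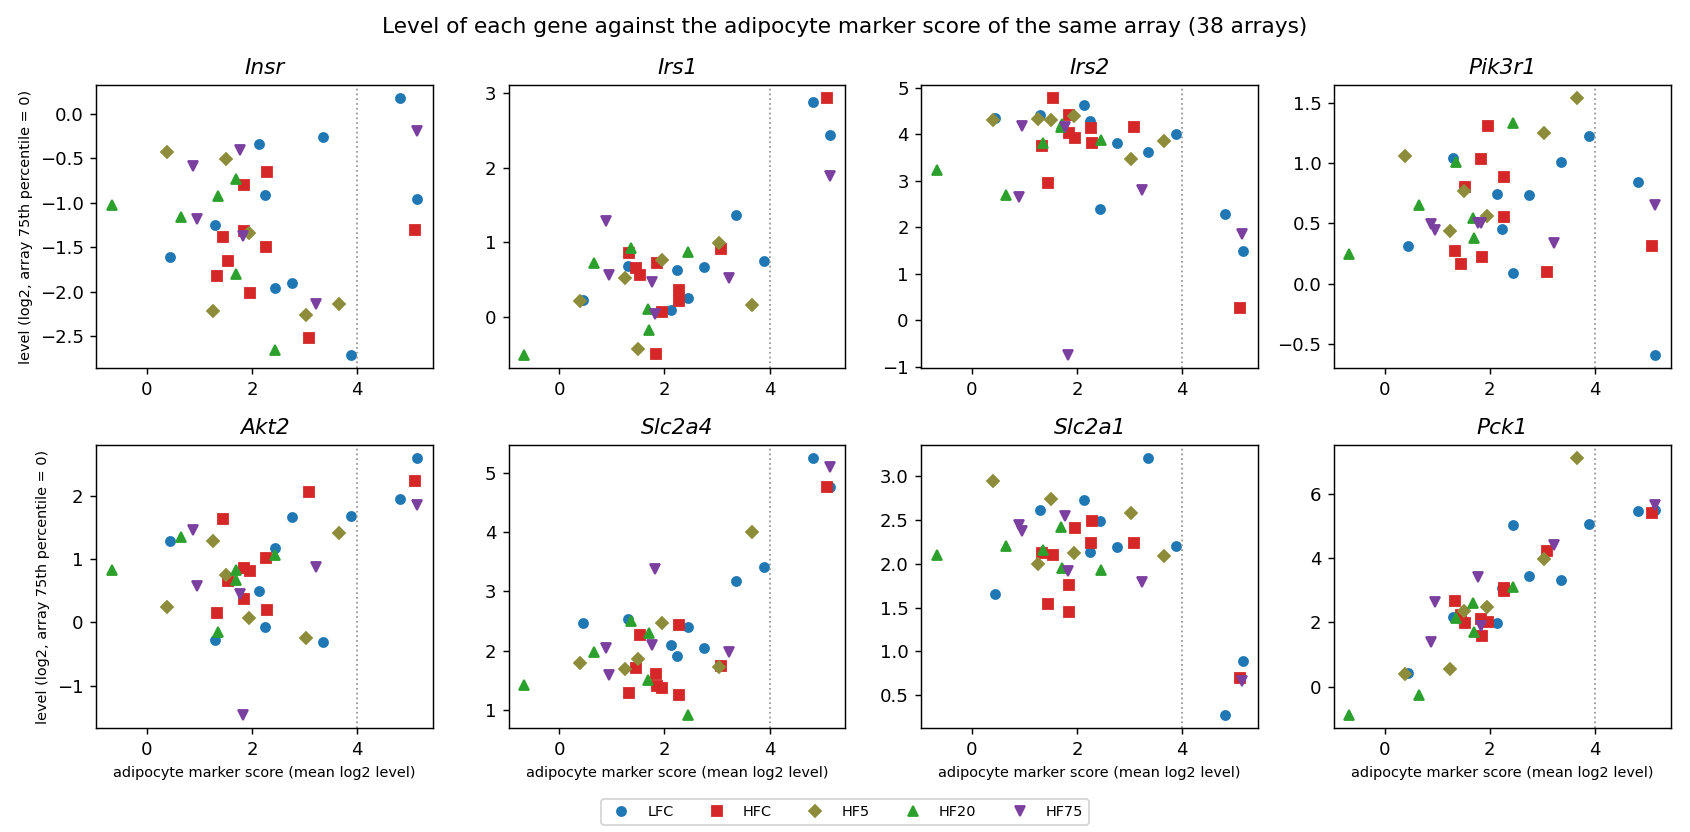
Level of each gene (vertical axis, log2, array 75th percentile set to 0) against the adipocyte marker score of the same array (horizontal axis, mean log2 level of 9 markers) for 38 arrays coloured by diet, with a dotted line at a score of 4. Right of the line are both control arrays of W9 and the LFC and HF75 arrays of W12, where Slc2a4 and Irs1 lay above and Slc2a1 below every other array.

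The diet difference was next asked for a change over the course. Of the 31029 probes, 0 passed for a change of HFC minus LFC with elapsed day in limma (0%) and 1357 had an unadjusted p under 0.05 (4.37%), against 1 of the 8 genes. That gene was Insr, whose difference changed by -0.08 log2 per week (SE 0.03, unadjusted p 0.0232, adjusted p 0.981). HFC was above LFC in Insr by up to 0.52 at the 4 time points from D6 to W0 and below it at 5 of the 6 from W3. The second Insr probe changed by 0.08 per week in the other direction (SE 0.04, unadjusted p 0.0557). The other 7 genes lay between -0.07 per week (Irs1, SE 0.04) and 0.05 per week (Pck1, SE 0.07).

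For the common slope on elapsed day in LFC and HFC, 153 of 31029 probes passed in limma (0.493%) and 3512 had an unadjusted p under 0.05 (11.3%), against 0 and 1 of the 8 genes. Insr had a slope of 0.06 log2 per week (SE 0.02, unadjusted p 0.00603, adjusted p 0.247), while its second probe had a slope of 0.00 (SE 0.03). This fit had no time point block, so it counted paired control arrays as independent although each pair shared age and scan day. With time point as a random block, 27 probes passed in limma. The slope of Insr then had an unadjusted p of 0.0230 and an adjusted p of 0.768. Without D6 and D10 the slope of Insr was 0.04 (unadjusted p 0.115). The remaining slopes lay between -0.02 (Akt2) and 0.04 (Slc2a4, SE 0.04) per week. Time point, age of the mice and scan day went together in this comparison and cannot be told apart.

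Each dose of KAL-1 was set against HFC over W3 to W18 in a fit of 30 arrays and 33711 probes. The LFC arrays of these weeks were part of the fit and of its estimate of the spread. They include LFC W9 and LFC W12, arrays of high adipocyte score. In limma 0 probes (0%) passed at any dose, and unadjusted p values under 0.05 were held by 1594 probes for HF5 (4.73%), 516 for HF20 (1.53%), 659 for HF75 (1.95%) and 586 for the mean of the doses (1.74%). None of the lead probes of the 8 genes was among them at any dose. Of the 14 member probes, 1 was among them at HF75 and 1 for the mean of the doses. Both counts are of a Pik3r1 probe described below, and at HF5 and HF20 the count was 0. The doses share the HFC arrays, so their values are given side by side. Each dose array of W9 was scanned on another day than HFC W9, so dose and scan day cannot be told apart there. Scan days also differed from HFC for HF20 (W3, W18) and for HF75 (W3, W6, W18). HFC W9 was an array of high adipocyte score while the dose arrays of W9 were not, and HF75 W12 was one while HFC W12 was not.

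Pck1 gave the largest mean difference of the 8 genes, at HF20. HF20 minus HFC was -0.26 at W3, -2.38 at W6, -2.30 at W9, -2.90 at W12, -0.94 at W15 and -0.39 at W18, lower at 6 of 6 weeks, with a mean of -1.53 (SE 0.80, unadjusted p 0.0682, adjusted p 0.9999 in limma). The spot of HFC W9 was saturated, so the value at W9 is not exact, and with saturated spots left out the mean was -1.33 (unadjusted p 0.134). Without W12 it was -1.25 (unadjusted p 0.00947 in limma), and leaving out any other single week gave -1.36 to -1.78 (unadjusted p 0.0739 to 0.163). The adipocyte score was lower in HF20 at 5 of those weeks, with differences from -0.58 to -2.65, and with that score as a covariate the Pck1 difference was -0.13. With the doses of W15 and W18 taken from the diet label, which names the other dose for HF5 and HF20 there, it was -1.86 (unadjusted p 0.0186). At HF5 the mean was -0.11 (SE 0.80), between -2.66 at W15 and 5.10 at W12, and at HF75 it was 0.31 (SE 0.80), between -0.97 at W9 and 3.64 at W12, with saturated spots on HFC W9 and HF75 W12. Without W12 the value at HF5 was -1.15 (unadjusted p 0.0154) and that at HF75 turned to -0.35. The value at HF5 turned to 0.18 without W6, to 0.15 without W9 and to 0.40 without W15. With saturated spots left out the values at HF5 and HF75 were 0.09 and 0.11.

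Slc2a4 differed from HFC by -0.03 (SE 0.59) at HF5, by -0.51 (SE 0.59) at HF20 and by 0.41 (SE 0.59) at HF75. At HF20 it was higher than in HFC by 0.04 to 0.37 at 5 of 6 weeks and the difference at W9 was -3.85. Single weeks decided the direction at each dose, with 0.58 at HF5 and 0.16 at HF20 without W9 and -0.25 at HF75 without W12. Slc2a1 differed by 0.46 (SE 0.34), 0.18 (SE 0.34) and 0.01 (SE 0.34) in the order of dose, and Irs2 by 0.55 (SE 0.67), 0.11 (SE 0.67) and -1.07 (SE 0.67). The Irs2 value at HF75 rested on HF75 W3, where the difference was -5.53, and without W3 it was -0.18. Without W9 the HF20 values of Irs2 and Slc2a1 turned to -0.59 and -0.03, and the HF5 values became 0.03 and 0.18. With scan day as the block, Slc2a4 differed by 0.51 at HF5, 0.06 at HF20 and 1.07 at HF75. Irs2 then differed by 0.06 at HF5 and -0.21 at HF20. Irs1 lay between -0.28 and 0.19, Akt2 between -0.38 and -0.20 and Insr between -0.07 and 0.43 over the doses. Leaving out 1 week turned the sign of Irs1 at each dose, of Akt2 at HF5 and HF75, of Insr at HF5 and HF20, of Slc2a1 at HF75, of Pik3r1 at HF5 and HF20 and of Pck1 at HF5 and HF75. In the fit of all weeks the unadjusted p of these differences lay above 0.05, so none stood out from the spread between the weeks.

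Pik3r1 was the gene in which a probe had an unadjusted p under 0.05 at a dose. GT_Mm_44k_51_P511236 stood at 0.85, 0.74, 0.57, 0.39, 0.30 and 1.54 in HFC from W3 to W18 and at -0.42, 0.19, 0.06, -0.31, 0.05 and 0.57 in HF75. HF75 was lower at 6 of 6 weeks, although the groups overlapped. The mean difference was -0.71 (SE 0.23, unadjusted p 0.00470, adjusted p 0.9999 in limma). Under the alternatives it lay between -0.83 (scan day as the block) and -0.40 (normexp correction), with unadjusted p of 0.00293 to 0.0508 in limma. The lowest levels of this probe were on the dimmest arrays, HF75 W3 (-0.42) and HF5 W12 (-0.41). The mean difference was -0.33 (SE 0.27) for the lead probe, -0.62 (SE 0.49) for GT_Mm_44k_52_P235476 and -1.33 (SE 0.68) for GT_Mm_44k_52_P307938. The latter probes were not well above background on HF75 W3, at levels of -4.07 and -5.28. Their lowest differences were -3.28 and -5.95, and HF75 was lower at 3 of 6 and at 4 of 5 weeks. At HF5 the probe GT_Mm_44k_51_P511236 was lower at 5 of 6 weeks and at HF20 at 4 of 6. For the mean of the doses it differed by -0.42 (SE 0.18, unadjusted p 0.0345 in limma), and by -0.53 to -0.19 under the alternatives (unadjusted p up to 0.208).

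**Figure D4:**
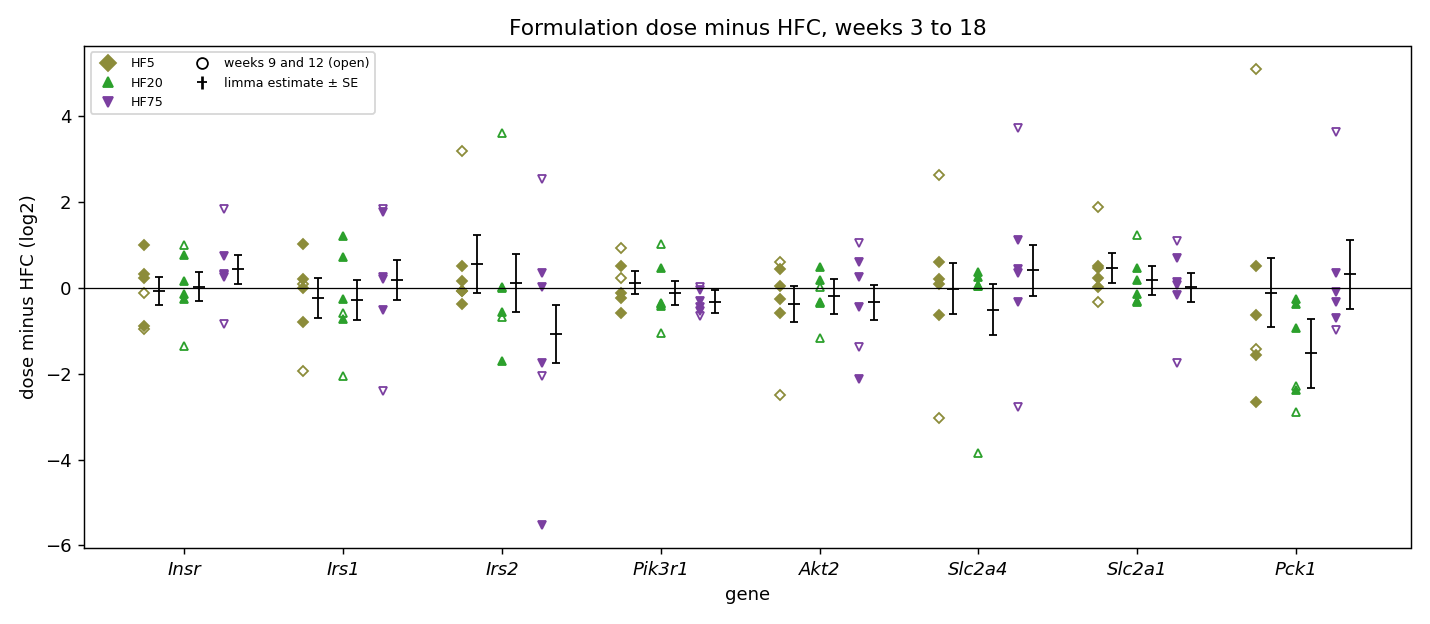
Difference between a formulation array and the HFC array of the same week (vertical axis, log2) for the 8 genes (horizontal axis) and 3 doses, 6 weeks each, with W9 and W12 as open symbols and the limma estimate ± SE beside them. The open symbols hold the widest differences of Slc2a4 (-3.85 to 3.72) and of Pck1 (up to 5.10), and the lowest point of Irs2 is HF75 W3.

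Other genes of the pathway were read from lists of 68 genes, of which 66 were on the array by name. In HFC minus LFC, 63 were tested, 0 passed, and 3 had an unadjusted p under 0.05 with a higher and 5 with a lower level in HFC (12.7%, against 9.08% of all probes). The median difference was -0.05 over the listed genes and 0.01 over all probes. Pcx, which encodes pyruvate carboxylase, ran from 1.04 to 5.29 in LFC (median 3.08) and from 0.69 to 5.13 in HFC (median 1.003), a difference of -1.56 (SE 0.44, unadjusted p 0.00402), lower at 9 of 10 time points. Gys2, a glycogen synthase known from liver, differed by -1.91 (SE 0.65) and was lower at 9 of 10, and Trib3, an inhibitor of AKT, differed by -0.43 (SE 0.16) and was lower at 8 of 10. The adipocyte score was also lower in HFC at 7 of 10 time points and the brown fat score at 8 of 10. Their part in these differences was not tested. Foxo3, a transcription factor that AKT phosphorylates, differed by 1.25 (SE 0.35) and was higher at 8 of 10, at levels between -8.00 and -4.41. Hk3, a hexokinase known from myeloid cells, differed by 1.11 (SE 0.43) and was higher at 8 of 10, where the macrophage score was also higher in HFC at 8 of 10 time points (mean 0.70, SE 0.30), and its part was not tested. All 5 had an adjusted p of 0.545 in limma.

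By list, HFC minus LFC gave 2 of 21 genes of the list of PI3K, AKT and what lies downstream, 2 of 8 genes of hexose phosphorylation and glycogen, and 1 each of 10 receptor adaptors, 8 inhibitors, 8 other glucose transporters and 8 genes of gluconeogenesis with an unadjusted p under 0.05. For the change with elapsed day only Slc2a2, the liver and islet glucose transporter, had one among 63 (1.59%, against 4.37% of all probes), with 0.14 per week (SE 0.05), with a median level of -6.15 in LFC. For the common slope there were 8 of 63 (12.7%, against 11.3% of all probes), 4 in each direction, and 0 passed. The 5 of smallest p were Slc2a10 at -0.07 per week (SE 0.02), Pck2, the mitochondrial PEPCK, at -0.04 (SE 0.01), Trib3 at 0.04 (SE 0.02), Slc2a3, encoding GLUT3, at -0.06 (SE 0.02) and Rps6kb1, encoding the S6 kinase, at 0.04 (SE 0.02), with adjusted p between 0.292 and 0.367 in limma. At the doses, 65 were tested and 1 had an unadjusted p under 0.05 in limma, which was Gsk3b at HF75 (1.54%, against 1.95% of all probes), with a difference of -0.90 (SE 0.42, p 0.0438), a kinase that AKT inhibits, lower at 6 of 6 weeks.

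The genes whose levels were most like those of each member over the 38 arrays were sought among 27536 probes by Pearson's r, as a description, since the arrays share the same differences in cell content. For Pck1 they were Cidec (0.90), Adrb3 (0.88) and Adipoq (0.88), of which Cidec and Adipoq are in the adipocyte list. For Slc2a4 they were Echdc1, Slc25a26 and 1300001I01Rik (each 0.92), and for Irs1 Ghr (0.88), 1110021L09Rik (0.88) and Ptger3 (0.86). For Irs2 they were AB041803 (0.91), Ccnl1 (0.91) and Tnrc18 (0.90), and for Slc2a1 Vcam1 (0.88), Alkbh3 (0.87) and Zfp36 (0.87). Akt2 was most like Nudt18, XR_002509 and Atp5b (each 0.89), and Insr most like Ate1 (0.84), LOC670626 (0.79) and Trak1 (0.79). Pik3r1 had the lowest values, with Il2ra (0.74), LOC668861 (0.70) and Baz2a (0.69).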

How the data were processed

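Messenger RNA of epididymal stromal vascular cells was hybridised to 38 1-colour Agilent arrays of mice on 5 diets. Per the file headers, the authors' scanner files hold intensity values from Feature Extraction: a processed signal, which Feature Extraction background-subtracts and detrends, and the mean and background signals as scanned (the submitters' processing notes name Agilent Feature Extraction 9.1). The deposited series table holds log2 ratios of each array to LFC at that time and was used as an alternative.

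Outlier spots were left out, spots of a probe were averaged, and the log2 75th percentile of the array was subtracted. Saturated spots were kept. A probe was tested where any diet in the fit had it well above background on a share of 0.5 or more of its arrays. The two-sided test was limma 3.58.1 (lmFit, eBayes; R 4.3.3), and p-values of all tested probes were adjusted by Benjamini-Hochberg, with a threshold of 0.05. The fits were checked on simulated data. HFC minus LFC (20 arrays), its change with elapsed day and the dose comparisons (30 arrays, W3 to W18) had time point as a block, which pairs arrays of the same time point and not animals. The common slope had diet as a covariate and no time point block. Weeks were converted to days by adding 14, so D14 and W0 share a day. Doses followed the source names. The number of arrays limits the precision. The probe of highest mean level stands for a gene. List genes were named at an unadjusted p under 0.05, at most 5 per comparison, and the 3 genes most like each member by r. The members, lists and comparisons were chosen with earlier results of these data known. Alternatives covered scaling, background correction, filters, blocks, covariates and left-out arrays.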

Additional observations from a re-analysis of the deposited data

Results flagged for a closer look

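In 40 groups, the 8 genes in each of 5 diets, an array was looked for whose distance to its nearest neighbour took an unusually large part of the range of its group (Dixon's criterion), which chance alone gives in about 1 of 20 groups. There were 4 such values. In HFC, the W9 array stood apart in Irs1 at 2.93 (next array 0.91), in Irs2 at 0.27 (next 2.94) and in Slc2a4 at 4.76 (next 2.44). In HF5, the W12 array, the dimmest of all, stood apart in Slc2a4 at 4.00 (next 2.47).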

How the results depend on the processing

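Over 1390 values of the members under the alternatives, 0 passed the adjusted threshold, and the sign differed from that reported in 162, none of them with an unadjusted p under 0.05 on either side. The Slc2a4 difference between HFC and LFC was between -1.21 (array brightness as a covariate) and -0.56 (adipocyte score as a covariate), and its adjusted p between 0.376 and 0.999. Leaving out 1 time point gave -1.17 to -0.70. Counts of probes past the threshold were 0 under every alternative for HFC minus LFC, its change with elapsed day and the dose comparisons, including those without the time point block (0 probes) and with each time point left out (0 to 0). A t-test of HFC minus LFC paired by time point also gave 0. For the common slope, 153 probes became 1 with normexp correction, 77 with a filter requiring every array, 27 with time point as a random block, 98 without W9 and W12, and between 43 (without D6) and 221 (without W3) with 1 time point left out. In alternatives added after seeing the data, 8 probes passed without D6 and D10 and 0 without D6, D10, W9 and W12. The cause was not tested. No value of Slc2a4 or Pck1 was measured free of saturation on LFC W12.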
